A study of Mus musculus with 6 samples.

Results

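The TALE homeobox genes Pbx2, Pbx3, Meis1, Meis2, Meis3, Pknox1 and Pknox2 encode the DNA-binding partners of Hox proteins, and their transcripts were measured in rhombomere 4 tissue of Hoxb1 mutant and wild-type mouse embryos. Rhombomere 4 is the hindbrain segment whose identity Hoxb1 specifies. Members were all probe sets of the Affymetrix mouse 430A array whose annotation names 1 of these 7 genes and no other gene. They comprised 10 of the 22626 mouse probe sets tested, 3 for Pbx2, 2 for Pknox1 and 1 for each of the other 5 genes.

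The study compared Hoxb1 mutant embryos with wild-type embryos at E10.5. Each group held 3 arrays, and each array carried total RNA from 1 pool of segments of several embryos, which the submitters call independent biological replicates. The labels describe the tissue as mostly rhombomere 4 with some of the neighbouring branchial arches. The Hoxb1 allele, the strain and whether the mutants were homozygous are not stated in the labels. In pooled tissue, fewer cells of a type and less RNA per cell cannot be told apart.

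Hox proteins bind closely related short DNA sequences, and TALE proteins add length and selectivity to the bound site. Pbx proteins bind next to a Hox protein on a shared Hox-Pbx site. Meis proteins and Prep proteins, the products of Pknox1 and Pknox2, contact Pbx through their N-terminal part and bind a neighbouring Meis-Prep site. Meis and Prep proteins also promote the entry of Pbx into the nucleus. In the mouse hindbrain such complexes act on the autoregulatory element upstream of Hoxb1, which maintains its expression in rhombomere 4, and on enhancers of Hoxb2 and Hoxa2.

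The sequence that shows where these proteins and Hoxb1 are known to act together is the region upstream of Hoxb1 itself. The region before a start of Meis3, the cofactor gene with the largest difference between the groups, is set beside it. Each line gives the 250 bases before the transcript start that the RefSeq promoter table uses, build GRCm38.p6, 5′ to 3′ on the gene's strand. The Hoxb1 window is chr11:96365508-96365757 on the plus strand, and the Meis3 window is chr7:16175145-16175394 on the plus strand. The Meis3 start used lies 1383 bases inside the full RefSeq span of the gene, and the Hoxb1 start lies 12 bases inside. Capitals mark matches on either strand to TGATNNAT, a Hox-Pbx site, or TGACAG, a Meis-Prep site.
Hoxb1: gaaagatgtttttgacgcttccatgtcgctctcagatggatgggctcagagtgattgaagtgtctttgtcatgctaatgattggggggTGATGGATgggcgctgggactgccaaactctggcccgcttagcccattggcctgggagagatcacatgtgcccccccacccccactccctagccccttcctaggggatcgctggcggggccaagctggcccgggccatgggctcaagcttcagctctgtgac
Meis3: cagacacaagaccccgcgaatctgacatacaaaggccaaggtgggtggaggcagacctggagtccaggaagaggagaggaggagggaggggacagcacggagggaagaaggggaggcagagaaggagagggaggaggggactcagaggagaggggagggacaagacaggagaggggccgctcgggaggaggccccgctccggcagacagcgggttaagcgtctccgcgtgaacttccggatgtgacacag
The Hoxb1 window held 1 Hox-Pbx match, TGATGGAT, whose first base lay 162 bases before the start, and 0 Meis-Prep matches. Promoter sequences were at hand for 4 of the 7 cofactor genes, Pbx2, Meis1, Meis2 and Meis3, and 0 of these windows held a match to either motif. For Pbx2 the start used is the edge of the gene's span, while those of Meis1 and Meis2 lie 682 and 2918 bases inside it. Among 32851 RefSeq windows of the same length, 7.68% held the Hox-Pbx letters and 15.9% the Meis-Prep letters. A match describes letters in the window and not binding, and no match says only that these letters are not in it. Only exact matches were counted, so sites of other spelling, in the Hoxb1 window too, would not appear.

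Values are intensities on a linear scale, and differences are those of mean log2(intensity + 16), mutants minus wild type, a scale that makes changes of dim probe sets look smaller. Tests were limma's moderated test, and p-values were adjusted by Benjamini-Hochberg across the 22626 probe sets. Bacterial control probe sets, which have no mouse target, had a 95th percentile of 61.5, and all 10 cofactor probe sets lay above it on all 6 arrays. The 18S ribosomal RNA control probe sets set wild-type arrays 2 and 3 apart, with a mean log2 signal of 12.1 and 11.3. The other 4 arrays, wild-type array 1 among them, lay at 6.36 to 7.03, so the difference of each cofactor gene is also given without those 2 arrays. Hoxb1, the targeted gene, read 60.8, 35.3 and 50.0 in mutants, against 341, 378 and 588 in wild type. All mutant arrays lay under the bacterial 95th percentile for this probe set, so its signal was at least 6.88-fold lower in mutants, with mutant arrays set to that percentile. The labels do not say whether the mutation removes the sequence that these probes detect, so the drop checks the labels only if it does.

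**Figure D1:**
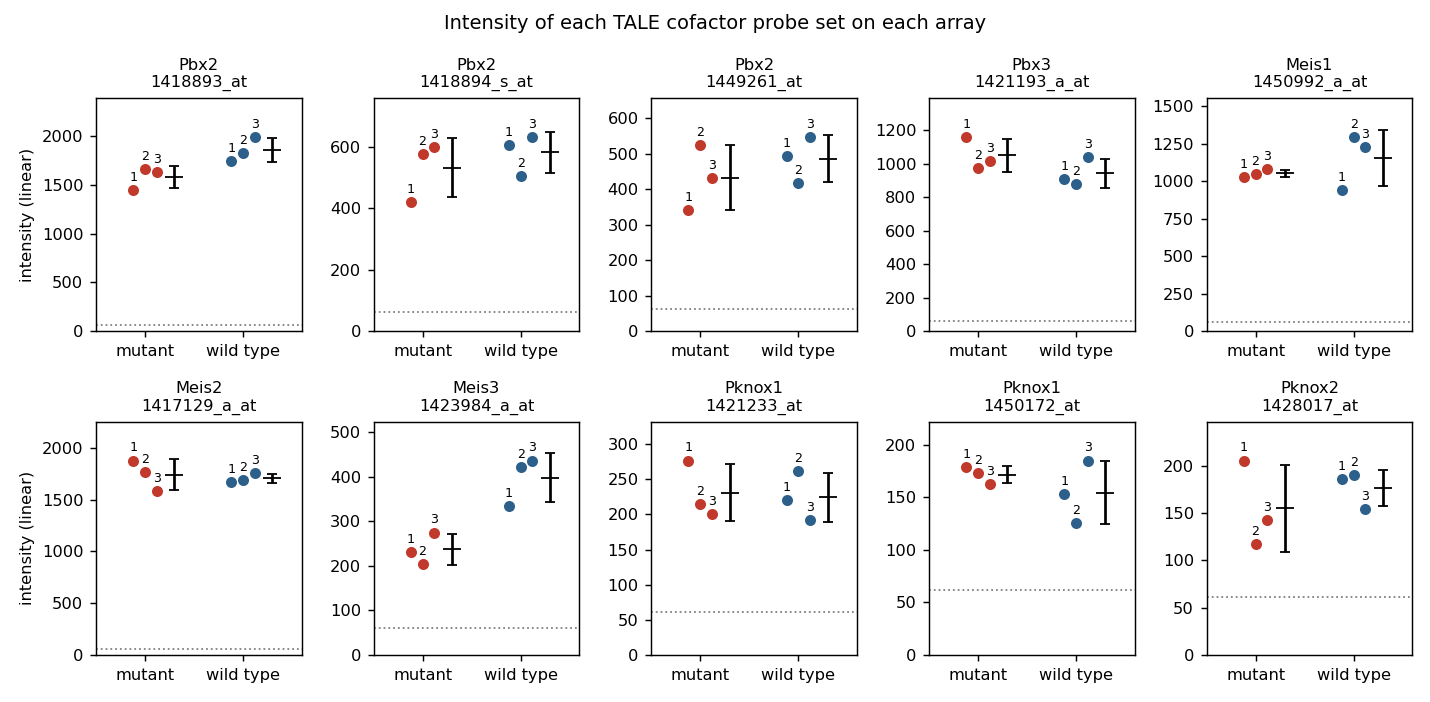
Linear intensity of the 10 cofactor probe sets on each of the 6 arrays, with the 3 Hoxb1 mutant arrays left of the 3 wild-type arrays in each panel. Numbers are replicates, bars are mean ± SD, and the dotted line is the bacterial 95th percentile of 61.5. Groups are separate for Meis3, at 205 to 275 in mutants and 335 to 437 in wild type, and for the brightest Pbx2 probe set.

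Meis3 was lower in the 3 Hoxb1 mutant pools than in the 3 wild-type pools, and it had the largest difference of the 7 cofactor genes, although it did not pass the test over all probe sets. Its probe set 1423984_a_at read 232, 205 and 275 in mutants, against 335, 421 and 437 in wild type. The highest mutant array lay below the lowest wild-type array, and the groups did not overlap. Means were 237 ± 35.4 in mutants and 398 ± 54.7 in wild type (SD, n = 3 each). Meis3 encodes a Meis protein whose frog and zebrafish counterparts act in patterning of the caudal hindbrain.

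The log2 difference of Meis3 was -0.71 (SE 0.16), a mutant to wild-type fold of 0.612 with a 95% interval of 0.470 to 0.797. In limma the unadjusted p was 0.00337, which ranked 110 among 22626 probe sets, and the adjusted p was 0.693. The exact two-sided permutation test gave 0.1, and groups of 3 arrays cannot give a smaller p. Over all probe sets 0 passed the adjusted threshold of 0.05 (a share of 0%), and 0 of the 10 cofactor probe sets did. Of all probe sets, 5.76% had an unadjusted p under 0.05, 3.88% lower and 1.88% higher in mutants. The Meis3 probe set was the 1 of the 10 cofactor probe sets that did, against 0 of 10 without wild-type arrays 2 and 3, where the share over all probe sets was 4.25%, and 0 of 10 with the 18S signal as a covariate, where it was 4.01%. The count was 2 of 10 without mutant array 1, with Pknox2 added and a share of 8.73%, and 2 of 10 with trend and robust eBayes settings, with Pbx2 added and a share of 6.24%.

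Without wild-type arrays 2 and 3, the log2 difference of Meis3 was -0.48 (SE 0.22), with a limma adjusted p of 0.999 and an unadjusted p of 0.0888. There the remaining wild-type array is assumed to vary like the mutant arrays. With the 18S signal as a covariate it was -0.50 (SE 0.20), with a limma adjusted p of 1.00 and an unadjusted p of 0.0508. Wild-type array 1, whose 18S signal was like that of the mutants, read 335 and lay above every mutant array, as groups without overlap require. Among the cofactor probe sets, it lay above every mutant array for 3, Meis3 included, below every one for 3 and within their range for 4. Such a position of 1 array was therefore not particular to Meis3, and 1 array gives no spread of the wild type. The part of the 18S signal in the Meis3 difference was not settled by it. Leaving out 1 array at a time, the Meis3 difference ran from -0.82 to -0.62, and its sign was the same in all 16 alternative settings.

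**Figure D2:**
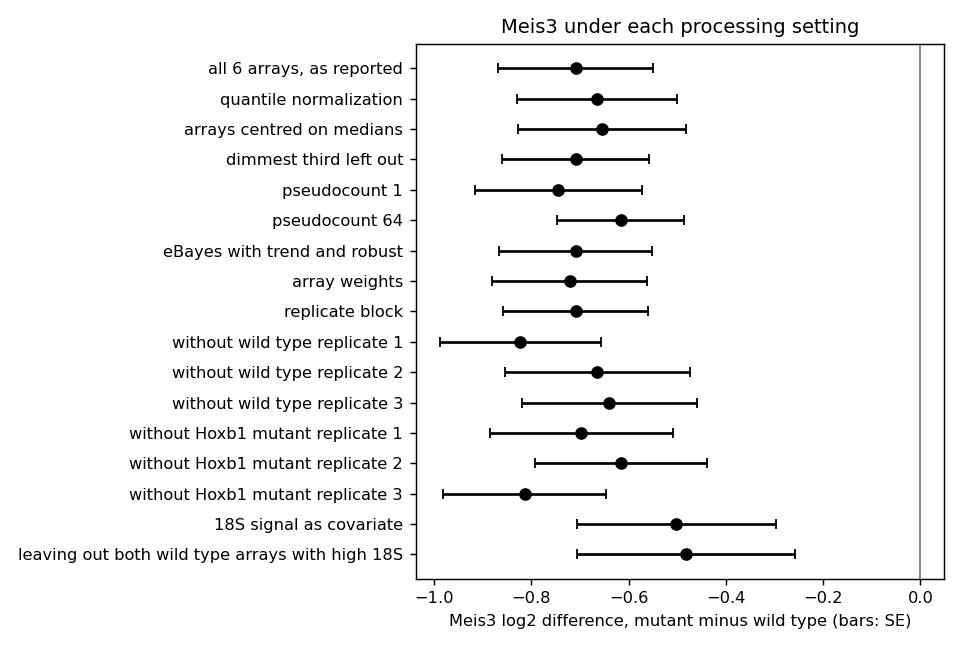
Meis3 log2 difference, mutant minus wild type, with its SE, in the reported fit (top) and under the 16 alternative settings. All values are negative, from -0.82 to -0.48, and the smallest sizes are those of the settings that account for the 18S signal.

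Meis1 and Meis2, the other Meis genes, did not pass the test, and their groups overlapped. Meis2, a homeobox gene active in hindbrain, somites and limb buds, read 1878, 1764 and 1579 in mutants with 1417129_a_at, against 1670.2, 1691 and 1758 in wild type. The log2 difference was 0.02 (SE 0.12), and its 95% interval corresponds to folds of 0.841 to 1.23, which leaves out a change of the size fitted for Meis3. Without wild-type arrays 2 and 3 it was 0.06 (SE 0.19). Meis1, which has roles in blood stem cells, the eye and the limb, read 1031, 1047 and 1079.6 in mutants with 1450992_a_at, against 941, 1297 and 1231 in wild type. The mutant arrays lay close together, between the lowest wild-type array and the others. Its log2 difference was -0.12 (SE 0.15; folds of 0.720 to 1.175), and turned to 0.16 (SE 0.17) without wild-type arrays 2 and 3.

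Pbx2, which encodes a Pbx protein found in most embryonic tissues, had a lower mean in mutants with each of its 3 probe sets, and none passed the test. The brightest, 1418893_at, read 1450.2, 1667 and 1632 in mutants, against 1749.6, 1828 and 1994 in wild type, without overlap. Its highest mutant array and its lowest wild-type array were 1.05-fold apart. The log2 difference was -0.23 (SE 0.12; folds of 0.702 to 1.04), with a limma adjusted p of 0.833. Groups without overlap were found for 12% of all probe sets, 7.08% lower and 4.88% higher in mutants, and for 2 of the 10 cofactor probe sets, both lower.

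The other Pbx2 probe sets overlapped between the groups. The probe set 1418894_s_at read 422, 578 and 599.5 in mutants, against 607, 506 and 633 in wild type, a log2 difference of -0.13 (SE 0.17). In Affymetrix naming the ending _s_at marks probes that transcripts of several genes may share. The probe set 1449261_at read 343, 526 and 431 in mutants, against 494, 418 and 548 in wild type, a log2 difference of -0.17 (SE 0.19). Mutant array 1 was the lowest of the 6 arrays with all 3 probe sets. Without it the log2 difference of 1418894_s_at turned to 0.02, and without wild-type arrays 2 and 3 those of the 3 probe sets were -0.15, -0.20 and -0.20.

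Pbx3, a Pbx gene known for its role in breathing control by the medulla, had a higher mean in mutants and did not pass the test. With 1421193_a_at it read 1159, 972 and 1017 in mutants, against 907, 878 and 1038 in wild type. The highest wild-type array lay above 2 of the mutant arrays. The log2 difference was 0.15 (SE 0.13; folds of 0.901 to 1.38), and 0.20 (SE 0.19) without wild-type arrays 2 and 3.

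The Prep genes did not pass the test either. Pknox1, which encodes Prep1, a protein needed for early embryonic survival, read 277, 214 and 201 in mutants with 1421233_at, against 219.8, 262 and 192 in wild type. With 1450172_at it read 179, 173 and 163 in mutants, against 153, 125 and 185 in wild type. Groups overlapped with both, and the log2 differences were 0.03 (SE 0.17; folds of 0.773 to 1.36) and 0.15 (SE 0.15; folds of 0.863 to 1.43). Without wild-type arrays 2 and 3 they were 0.05 (SE 0.24) and 0.15 (SE 0.17).

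Pknox2, which encodes Prep2, read 206, 117 and 142 in mutants with 1428017_at, against 186, 189.8 and 155 in wild type. The mutant arrays spanned the wild-type arrays. The log2 difference was -0.20 (SE 0.20; folds of 0.620 to 1.22), and -0.27 (SE 0.33) without wild-type arrays 2 and 3.

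Over the 10 cofactor probe sets, 6 had a lower and 4 a higher mean in mutants, with a median log2 difference of -0.13. Without wild-type arrays 2 and 3 it was 5 lower and 5 higher, with a median of -0.05. Over all probe sets and arrays, 12258 were lower and 10368 higher, with a median of -0.02. The 95% interval left out 0 for Meis3 and included it for the other 9 probe sets.

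**Figure D3:**
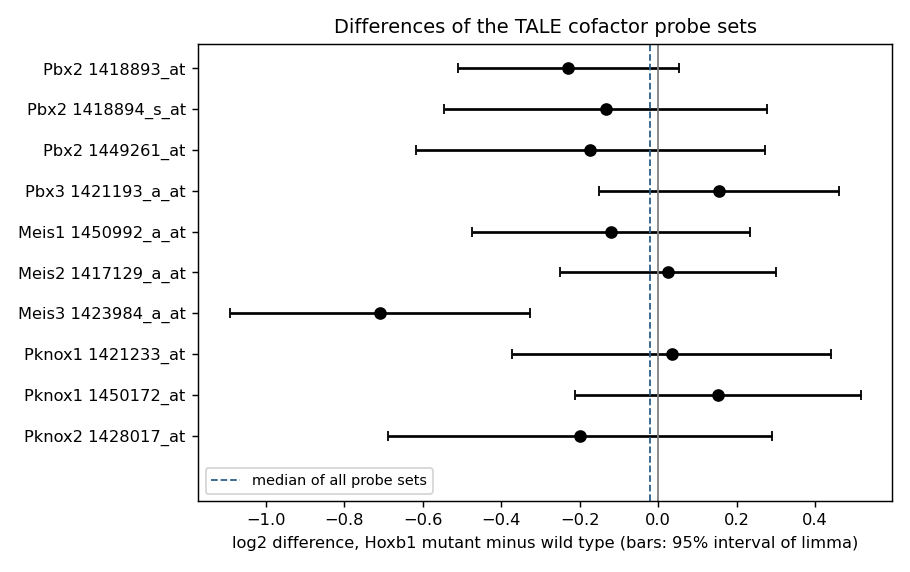
Log2 difference, mutant minus wild type, of each cofactor probe set with its 95% interval from limma, and the median of all probe sets (dashed line, -0.02). The Meis3 interval, -1.09 to -0.33, lies below 0, and the other 9 intervals include 0.

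Meis3 was also set against the other cofactors within each array, as ratios of intensity + 16. The log2 ratio of Meis3 to Meis2 was -2.93, -3.01 and -2.45 in mutants, against -2.26, -1.96 and -1.97 in wild type. Groups did not overlap, and the ratio was 0.73 log2 units lower in mutants (a difference of -0.73, exact two-sided permutation p = 0.1). That of Meis3 to Meis1 was -2.08, -2.27 and -1.91 in mutants, against -1.45, -1.59 and -1.46 in wild type, also without overlap (difference -0.59, exact permutation p = 0.1). Over the 9 other cofactor probe sets the differences ran from -0.86 to -0.48, and the groups did not overlap for 6 of them. Wild-type array 1 taken alone lay above every mutant array in 6 of the 9, as it did for Meis3 itself. These are the 6 without overlap, where that position is fixed. The 9 ratios share the Meis3 values and are not independent. They restate the Meis3 difference beside the other cofactors' values, and 0.1 is the smallest exact p that 3 arrays a group allow.

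**Figure D4:**
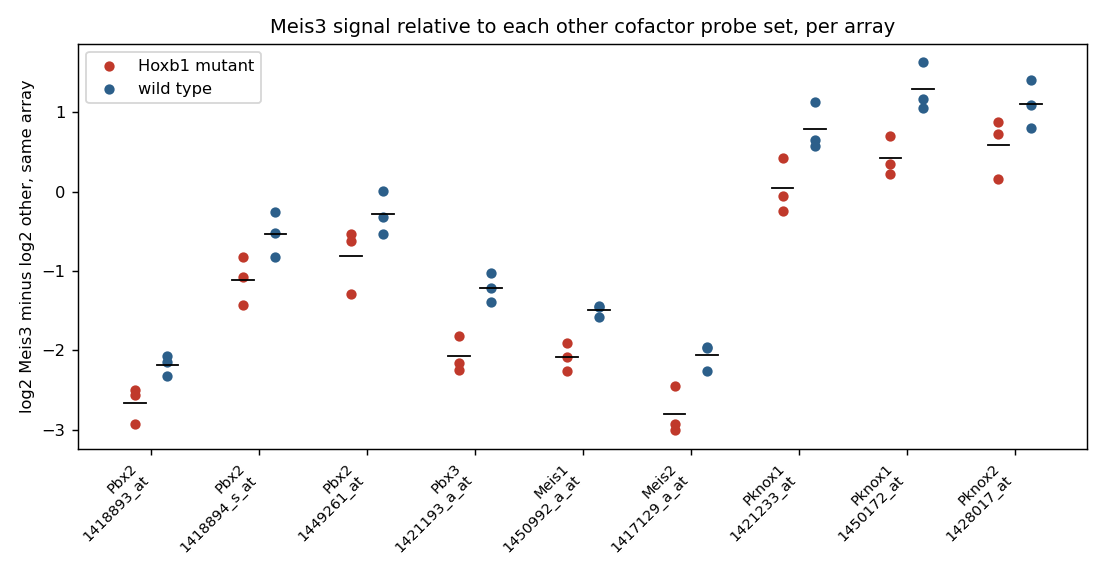
Log2 of Meis3 minus log2 of each other cofactor probe set on the same array, for 3 Hoxb1 mutant arrays (left of each pair) and 3 wild-type arrays, with bars at the means. The mutant mean is lower in all 9, by 0.48 to 0.86, and the groups overlap for 1418894_s_at and 1449261_at of Pbx2 and for Pknox2.

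Likeness to Meis3 and to Meis2 was ranked by Pearson r over the 6 arrays, among 14234 probe sets of other named genes that lay above the bacterial 95th percentile on all arrays. The nearest to Meis3 were Dhrs2 (r = 0.994), Sox10 (0.992) and Ugcg (0.989), with log2 differences of -0.54, -0.40 and -0.28. The nearest to Meis2 were Ebf3 (r = 0.994), Reep3 (0.989) and Muc20 (0.989), with log2 differences of 0.08, 0.03 and 0.05. The r includes the difference between the groups, so the ranking itself favours genes that differ as Meis3 or Meis2 does. The directions of these differences are therefore no separate result. The genes named are the top 3 of 14234 candidates over only 6 arrays. At a lower limit, 232 probe sets had r above 0.9 with Meis3 and 157 with Meis2. Among the cofactors, the r with Meis3 ran from -0.44 for Pbx3 to 0.83 for the brightest Pbx2 probe set.

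Other TALE homeobox genes were measured with 10 probe sets of 9 genes, and 0 passed the test. They were the Irx genes, which divide neural tissue into domains, the Tgif repressors and Pbx4, while Mkx is not analysed here. Means were lower in mutants for 7 of the 10, against 54.2% of all probe sets, and the groups did not overlap for 3, all lower, against 7.08% of all probe sets. Tgif1, which antagonises retinoid and TGF-beta signalling, read 599.97, 563 and 525 in mutants, against 683, 622 and 637 in wild type (log2 difference -0.20, SE 0.11). Irx5 averaged 605 ± 10.49 in mutants and 679.9 ± 50.8 in wild type (-0.16, SE 0.11), also without overlap. Irx4, at 124 ± 32.0 in mutants and 163 ± 12.8 in wild type, and Irx3, at 1007 ± 67.9 in mutants and 919 ± 13.0 in wild type, overlapped. The median log2 difference over the 10 was -0.07, and -0.08 without wild-type arrays 2 and 3. In that setting 1 probe set had an unadjusted p under 0.05, a dim one of Pbx4 that was higher in mutants. It read 40.4, 51.1 and 53.2 in mutants, against 10.95 on the remaining wild-type array, all under the bacterial 95th percentile (log2 difference 1.25, SE 0.20, limma adjusted p 0.743).

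Hox genes of paralog groups 1 to 4, whose proteins pair with these cofactors, were measured with 12 probe sets of 9 genes, and 0 passed the adjusted threshold. Of the 12, 4 had an unadjusted p under 0.05, all lower in mutants, against 3.88% of all probe sets. They belonged to Hoxb1, to Hoxb3, expressed behind rhombomere 4, and to Hoxa3, with 2 probe sets. Hoxb3 read 114, 128 and 88.6 in mutants, against 153, 192 and 222 in wild type (-0.70, SE 0.18). Hoxa3 averaged 101 ± 15.001 in mutants and 179.7 ± 52.1 in wild type with 1427433_s_at (-0.72, SE 0.23), and 148 ± 23.5 in mutants and 201 ± 25.7 in wild type with 1452421_at (-0.40, SE 0.16). Without wild-type arrays 2 and 3 the count was 1 of 12, that of Hoxb1, against 2.39% of all probe sets lower in that setting, and wild-type array 1 lay above every mutant array for Hoxb3 and for both Hoxa3 probe sets. The groups of these Hoxb3 and Hoxa3 probe sets did not overlap, so that position of wild-type array 1 was fixed. Hoxd3 and Hoxd4 are not analysed here.

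Of 7 genes with known Hox-TALE enhancers in the hindbrain or spinal cord, 5 were measured, all of them also in the Hox list, and 0 of their 7 probe sets passed the adjusted threshold. Hoxb2 averaged 1149.9 ± 149 in mutants and 1370.5 ± 46.3 in wild type (log2 difference -0.26, SE 0.13). Hoxa2 averaged 509 in mutants and 516 in wild type (0.00, SE 0.15), and both had overlapping groups. The median log2 difference of the 7 probe sets was -0.40, with Hoxb1 itself among them, and -0.23 without wild-type arrays 2 and 3. Of 8 genes for proteins that bind TALE proteins, 5 were measured with 7 probe sets, 0 passed, and the median was -0.03 (-0.02 without wild-type arrays 2 and 3). Pbxip1, which encodes a protein that binds Pbx and inhibits its action, read 283, 199 and 160.1 in mutants with 1460344_at, against 261, 309.6 and 318 in wild type (-0.47, SE 0.21). Its other probe set 1451132_at gave -0.03 (SE 0.16). The co-repressor gene Hdac1 gave 0.03 (SE 0.10), and the co-activator gene Crebbp -0.20 (SE 0.15).

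**Figure D5:**
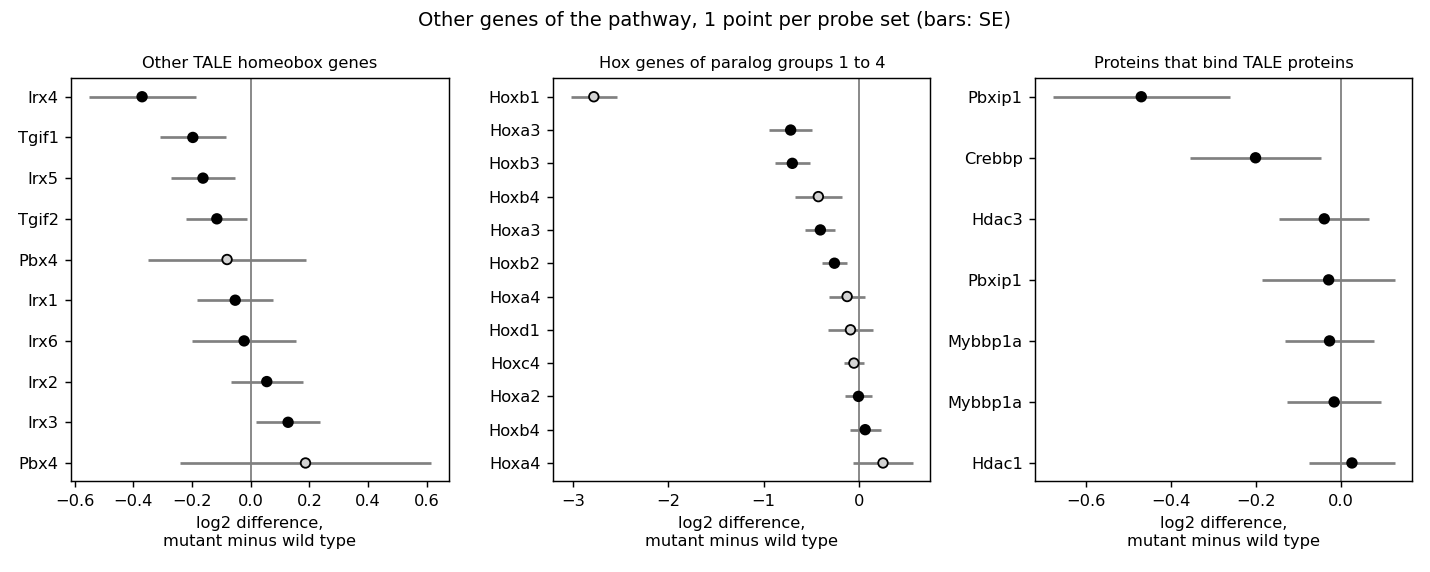
Log2 difference, mutant minus wild type, with its SE, of each probe set of 3 lists, namely other TALE homeobox genes, Hox genes of paralog groups 1 to 4 and proteins that bind TALE proteins. Black points lay above the bacterial 95th percentile on all 6 arrays and grey points did not. The Hox panel has a wider axis than the others. Hoxb1, at a fitted value of -2.78 that is not a bound, stands apart from the other points, which lie between -0.72 and 0.25.

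Marker genes of the cells that the dissected tissue could hold were summed on each array, with the brightest probe set per gene. Neural progenitor markers, 5 of 5 measured, summed to 4215 to 4404 in mutants and 4796 to 5644 in wild type, without overlap. Sox3, at 608 in mutants and 1059 in wild type, made up most of that gap, while Sox2 overlapped (log2 difference -0.07) and the brightest Pax6 probe set gave 0.06. Markers of the neural tube behind rhombomere 4, 6 of 9 measured and with Hoxb3 and Hoxa3 among them, summed to 348 to 432 in mutants and 504 to 536 in wild type. That gap came mostly from Hoxb3 and Hoxa3, described above. Of the 6 genes, 4 had a lower and 2 a higher mean in mutants. The higher 2 were Hoxb4 with its brightest probe set (log2 difference 0.07) and Hoxa5 (0.61). The dimmer Hoxb4 probe set, 1460379_at, went the other way (-0.43, SE 0.25), with overlapping groups. Hoxa5, Hoxb5 and Hoxc5 lay at or under the bacterial 95th percentile on all arrays. Branchiomotor neuron markers, 2 of 3 measured, summed to 1582 to 1691 in mutants and 1699 to 1950 in wild type. Most of that sum was Isl1, at 1483, 1459 and 1583 in mutants, against 1740, 1552 and 1785 in wild type. Taken singly, Isl1 and Tbx20 each overlapped between the groups. Wild-type array 1 alone lay above every mutant array in these 3 sums, at 4822, 519 and 1909.6, as their lack of overlap requires. It also did so for the markers listed as ahead of rhombomere 4, at 322, a sum whose groups overlapped. This sets 1 array against 3 and gives no spread of the wild type. The part of cell types in the Meis3 difference was not tested.

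The other marker sums overlapped between the groups. Neuron markers, 5 of 5, summed to 5205 to 7378 in mutants and 6795 to 7952 in wild type. Branchial arch crest and mesenchyme markers, 8 of 8, summed to 4474 to 4926 in mutants and 4674 to 6135 in wild type, and all 8 genes were above the bacterial 95th percentile on all 6 arrays. Epithelial markers, 4 of 4, summed to 2458 to 3164 in mutants and 2377 to 3177 in wild type, and endothelial markers, 4 of 4, to 1068 to 1279 in mutants and 1237 to 1260.4 in wild type. Erythroid markers, 3 of 4, summed to 23715 to 26836 in mutants and 19956 to 24449 in wild type. Muscle markers, 3 of 3 with Myf5 under the bacterial 95th percentile, summed to 148 to 259.97 in mutants and 203 to 256 in wild type. Markers listed for the brain ahead of rhombomere 4, 5 of 5, summed to 246 to 299 in mutants and 223 to 322 in wild type. Of these, En1, En2 and Fgf8 lay under the bacterial 95th percentile on all arrays. Egr2, which averaged 89.5 in mutants and 91.2 in wild type, is not confined to that region.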

How the data were processed

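The authors deposited 1 intensity for each probe set on each array, and the range of the values shows a linear scale. The submitters' processing notes name affy, with no version. The sources used here do not give the expression algorithm or background correction. The 22690 intensities of every array have a mean of 500.0 once 2% is trimmed from both ends, so the values were scaled by 1 factor per array. No further normalization was applied. A fold or log2 value is a result computed here from the deposited intensities.

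Control probe sets, 64 in number, were left out of the tests, among them the 27 bacterial ones used as background. Gene names came from the platform annotation, updated through Entrez identifiers in RefSeq GRCm38.p6 for 20351 of 20380 probe sets with 1 gene. Mutants and wild type were compared by lmFit and eBayes of limma 3.58.1, run under R 4.3.3 (all 6 arrays, no covariate, 2-sided). Permutation tests used scipy 1.17.1. Precision is limited by the number of arrays, with a median SE of 0.16 for a log2 difference. Same-numbered arrays of the groups did not deviate together (correlations of 0.05, -0.02 and 0.04). Every probe set of each cofactor gene is named, with up to 4 genes of smallest p per further list, while Hoxa2, Hdac1 and Crebbp were named for their roles. The members and lists were chosen with earlier results of these data known.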

Additional observations from a re-analysis of the deposited data

How the results depend on the processing

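The counts of calls and the 10 cofactor differences were computed under 16 alternative settings, the gene lists only without wild-type arrays 2 and 3, and the ratios, likeness ranks and marker sums under none. The count of cofactor probe sets past the adjusted threshold was 0 in all 16 and at an adjusted threshold of 0.1, and 1 at an unadjusted p under 0.05 in the reported fit (0 to 2 in the alternatives). Over all probe sets the count was 0 in the reported fit, 3 with quantile normalization, 4 with arrays centred on their medians, 2 without the dimmest 33.3% of probe sets, 3 with trend and robust settings, 4 with array weights and 0 in the other settings, leaving out each array in turn included. With the replicate number as a block, Meis3 had a log2 difference of -0.71 and a limma adjusted p of 0.813, and the block changed no call. The limma adjusted p of Meis3 ran from 0.418 to 1.00 over the settings. Of 160 differences of single probe sets under alternatives, 153 had the sign of the reported fit and 7 turned. Those 7 were Meis1 with the 18S covariate (0.14) and without both wild-type arrays of high 18S signal (0.16), Meis2 without mutant array 1 (-0.0313), Pbx2 1418894_s_at without mutant array 1 (0.0216), and Pknox1 1421233_at with array weights (-0.0492), without wild-type array 3 (-0.07) and without mutant array 1 (-0.10). Leaving out 1 array at a time, differences ranged from -0.27 to -0.17 for Pbx2 1418893_at, from -0.32 to -0.02 for Pbx2 1449261_at, from 0.08 to 0.23 for Pbx3, from -0.26 to -0.03 for Meis1, from 0.03 to 0.28 for Pknox1 1450172_at and from -0.40 to -0.04 for Pknox2. They ranged from -0.23 to 0.0216 for Pbx2 1418894_s_at, from -0.0313 to 0.0927 for Meis2 and from -0.10 to 0.14 for Pknox1 1421233_at. The cause was not tested. All 10 cofactor probe sets lay above the bacterial 95th percentile on all arrays.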

Other observations

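Both probe sets of Pbx4, a Pbx gene of the testis in the adult mouse, were dim. The probe set 1454912_at averaged 15.1 ± 9.37 in mutants and 16.1 ± 6.19 in wild type, under the bacterial 95th percentile on all 6 arrays, and 1449916_at averaged 48.2 ± 6.83 in mutants and 47.2 ± 31.8 in wild type, with 1 of 6 arrays above it. The spread of Meis1 differed between the groups, with an SD of 24.7 among mutant arrays and 189 among wild-type arrays, where wild-type array 1 was the lowest of all 6.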
